A study of Oryza sativa Japonica Group with 6 samples.

Results

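The arginine decarboxylases and polyamine oxidases of rice (Oryza sativa Japonica Group) were examined in developing seeds of plants with and without additional ammonium chloride. Members were the genes with the symbol or synonym ADC1, ADC2 or PAO1 to PAO7, read from every probe set that the platform annotation pairs with exactly 1 gene. Of these 9 genes, 2 had such a probe set, ADC1 with 2 probe sets and ADC2 with 1, out of 17905 genes with a single-gene probe set. The 7 PAO genes have no value here: PAO6 is in the gene table but is paired with no probe set, and PAO1 to PAO5 and PAO7 are not analysed here. The genes were picked by name with the additional NH4Cl and control values of ADC1 on the 6 arrays already known, so all differences of ADC1 and ADC2 are a description and carry no p-value.

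Polyamines are small positively charged molecules that bind nucleic acids and membranes. Arginine decarboxylase turns arginine into agmatine, the first step of a plant route to putrescine. Spermidine and spermine are then built from putrescine with aminopropyl groups that come from S-adenosylmethionine. Polyamine oxidases break down spermidine and spermine and release hydrogen peroxide. As the substrate arginine is rich in nitrogen, the route through arginine decarboxylase draws on the nitrogen supply of the plant.

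The additional NH4Cl group held 3 arrays of seeds from plants given 400 mg of ammonium chloride per container on the soil surface at heading, labelled 15 days after flowering. The control group held 3 arrays of seeds from plants without that dose, and the labels give no day for them. Both groups had received fertilizer at planting and a second time 37 days after germination, and 6 plants gave the seeds. The labels call the arrays of each group biological replicates, but nothing in them ties a replicate to a plant of its own. P-values then cover only the spread between these arrays, and how much of the spread between plants it holds is not known. The tissue label says developing seed, although the extraction label speaks of seedlings. Endosperm markers were bright: 11 genes, among them glutelins, prolamin and starch synthesis genes, had a median level of 12.6 in both groups, with GLUB-4 alone below the brightest of 64 reporter control probe sets (6.07). Markers of green tissue were present too (4 genes, 6.03 to 11.4 in both groups, LIR1 alone below that reporter control). Fewer cells of a type and less RNA per cell cannot be told apart in such samples.

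Levels are deposited values read as log2, which run from 4.96 to 13.51. They hardly differed between arrays: the median probe set had an SD of 2.25e-06 over the 6 arrays and a median absolute difference between groups of 1.41e-06. The differences are thus far too compressed to be read as fold changes of RNA, and each is also given divided by the SD within groups of the same probe set. The number of arrays limits the precision.

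ADC1 was higher with additional NH4Cl on both of its probe sets, while ADC2 showed next to no difference as deposited. The dimmer ADC1 probe set had one of the largest differences in the table and the brighter one a far smaller difference. Relative to the spread within groups, the 2 probe sets gave nearly the same separation.

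On the dimmer probe set of ADC1 (gene LOC4340008), the additional NH4Cl arrays had log2 values of 6.2053, 6.0860 and 6.1022, against 5.9819, 5.9136 and 5.9307 on the control arrays. Every additional NH4Cl array lay above every control array, and replicate 1 was the highest of its group in both groups. The gap between the lowest additional NH4Cl array and the highest control array was 0.104, which is smaller than the range within additional NH4Cl (0.119) and larger than that within control (0.0683). Additional NH4Cl averaged 6.13 ± 0.065 and control 5.94 ± 0.036 (SD, n = 3 each). The difference was 0.189 (SE 0.0426), or 3.62 SDs within groups.

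This difference ranked 10 of 57194 rice probe sets by absolute size and 6 among those higher with additional NH4Cl. The SD over the 6 arrays, 0.114, also ranked 10. Only 21 probe sets differed by more than 0.1, 12 of them higher and 9 lower with additional NH4Cl. By the ratio to the SD within groups, which is free of scale, the same probe set ranked 881 among the higher ones. Counted from the brightest probe set of each array, it stood at places 16991, 18679 and 18409 with additional NH4Cl, against places 20731, 22288 and 21882 in control. Every additional NH4Cl array thus placed it nearer to the brightest probe sets than any control array did.

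The signal of this probe set was low. Its control mean lay below the brightest reporter control probe set, designed for a reporter gene from outside rice, at 6.07, and its additional NH4Cl mean lay above it. That reporter probe set had a difference of -2.14e-07 between the groups. Of the 64 reporter controls, 3 were brighter than the control mean of the dimmer ADC1 probe set and 0 were brighter than its additional NH4Cl mean.

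**Figure D1:**
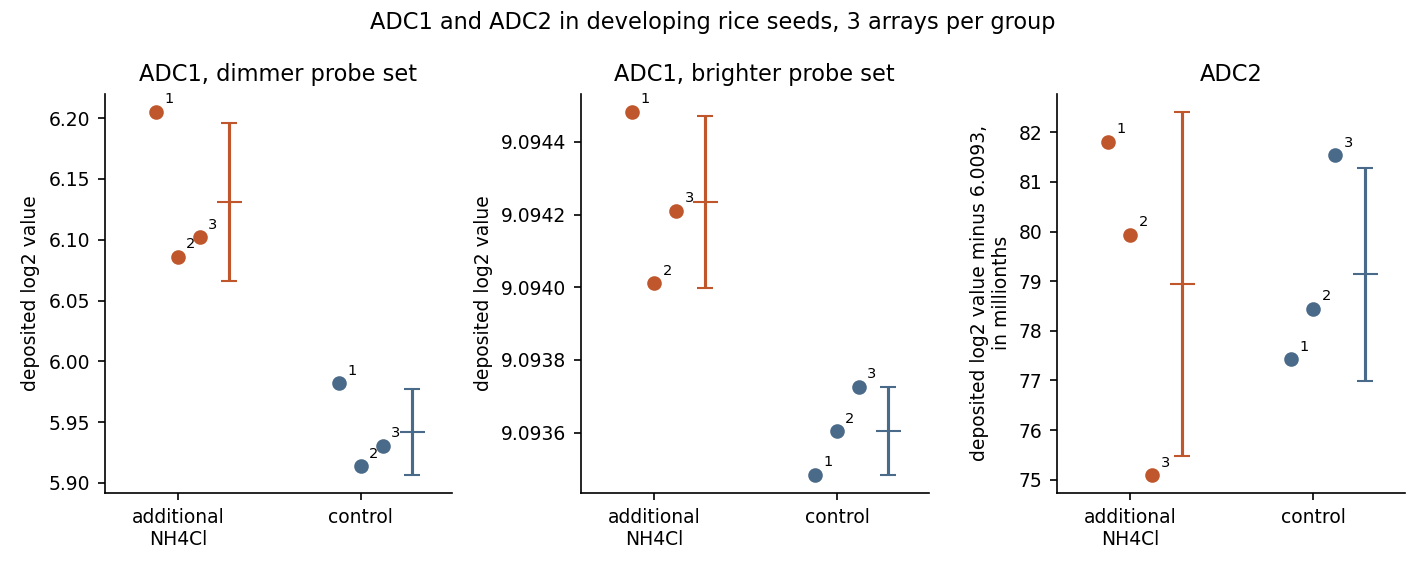
Deposited log2 values of the dimmer ADC1 probe set, the brighter ADC1 probe set and ADC2 on each array, with additional NH4Cl left of control; each panel has its own vertical scale, numbers mark replicates, and bars give the mean with SD (n = 3 each). The groups lie apart on both ADC1 probe sets and, as deposited, overlap for ADC2, whose scale spans a few millionths.

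On the brighter probe set of ADC1, the additional NH4Cl arrays had log2 values of 9.09448, 9.09401 and 9.09421, against 9.09348, 9.09360 and 9.09373 on the control arrays. The groups again did not overlap. Replicate 1 was the highest array of additional NH4Cl, as on the dimmer probe set, but the lowest of control. Additional NH4Cl averaged 9.0942 ± 0.00024 and control 9.0936 ± 0.00012 (SD, n = 3 each), a difference of 0.00063 (SE 0.000154). That is 3.35 SDs within groups, close to the 3.62 SDs of the dimmer probe set.

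The level of the brighter probe set exceeded that of 97.3% of rice probe sets, and the dimmer one exceeded 65.7%. The difference of the brighter one ranked 2051 by absolute size and 1101 among the higher ones by its ratio to the SD within groups. It stood at places 1518, 1518 and 1517 from the brightest with additional NH4Cl, against places 1520, 1520 and 1519 in control. Its place differed by at most 3 probe sets over the arrays.

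Both ADC1 probe sets have names without the suffix by which the platform marks probe sets that can match several transcripts. Over the 6 arrays their values had a Pearson r of 0.925 and a Spearman rho of 0.829, given as a description since the 6 points share arrays and the same division into groups. The dimmer probe set had a difference 300.1 times that of the brighter one. A ratio of this size was not rare: among 2606 genes with exactly 2 single-gene probe sets, 9.36% had a ratio at least as large, and the median ratio was 8.35. ADC1 was the 1 gene among these 2606 with a difference of at least 0.1 on either probe set. That is a description only, since ADC1 was chosen with its values known. Genes with another number of probe sets are not in this pool.

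Groups of 3 arrays without overlap were common in this table. Over all rice probe sets 8.42% were higher with additional NH4Cl without overlap and 8.99% were lower, and both probe sets were higher without overlap in 2.72% of the 2606 genes. The ADC1 count of 2 of 2 stands beside these shares as a description, since the same contrast was in view when the gene was chosen. In the limma fit over all 57194 rice probe sets (two-sided, Benjamini-Hochberg adjusted p under 0.05) 4 probe sets were called, or 0.00699%, with 0 higher and 4 lower as deposited.

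**Figure D2:**
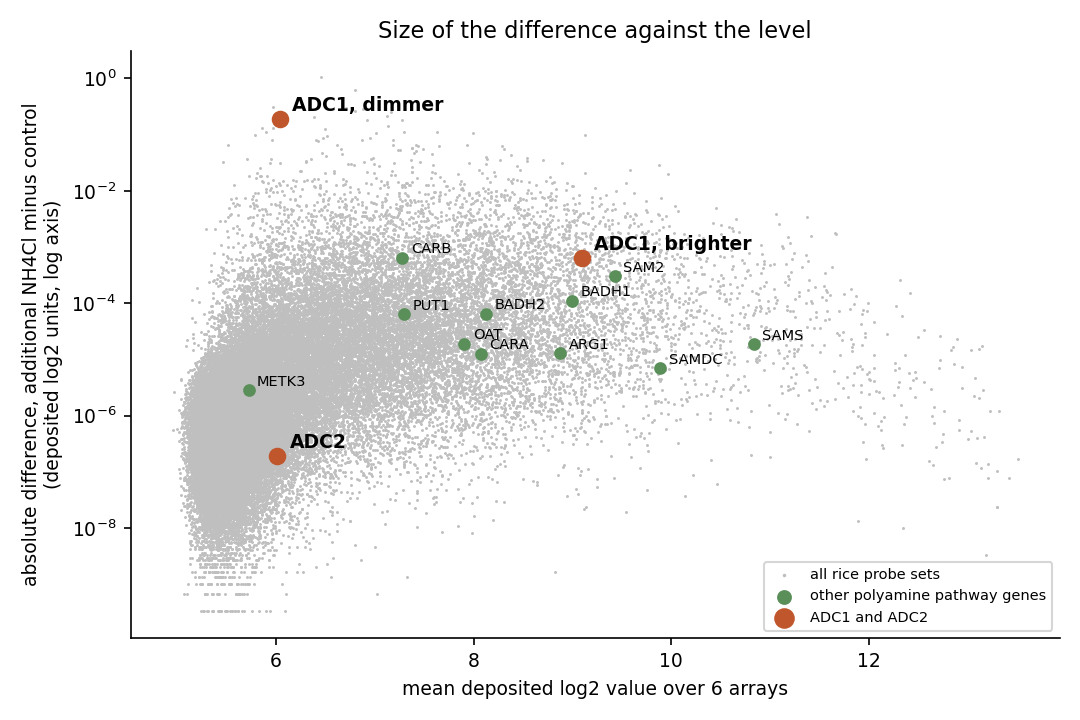
Absolute difference between the groups (deposited log2 units, log axis) against the mean level over 6 arrays for rice probe sets in grey, other polyamine pathway genes in green, and the ADC probe sets in orange; 19 probe sets with no difference are not drawn. The dimmer ADC1 probe set lies at the upper edge of the cloud, the brighter one within it, and ADC2 near the lower part at almost the same level as the dimmer ADC1 probe set.

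ADC2, the second arginine decarboxylase (gene LOC4334917), was read with 1 probe set. Its log2 values were 6.009382, 6.009380 and 6.009375 with additional NH4Cl, against 6.009377, 6.009378 and 6.009382 in control. As deposited the groups overlapped, and the lowest array and the highest array both belonged to additional NH4Cl. The difference was -1.89e-07 (SE 2.35e-06, n = 3 per group), or -0.0656 SDs within groups. It was 1.74e-06 without additional NH4Cl replicate 3, 1.01e-06 without control replicate 3 and negative without any 1 of the other arrays. The groups of ADC2 did not overlap under either other scaling, and the direction differed between these. How many rice probe sets lay without overlap under these scalings was not counted. Limma called 50499 of 57194 higher after median centring, and 2082 higher and 1997 lower after quantile normalization. After quantile normalization the arrays with additional NH4Cl lay at 6.009174 to 6.009278, below those in control at 6.009338 to 6.009416. After centring each array on its median they lay at 6.009428 to 6.009448 with additional NH4Cl, above those in control at 6.009290 to 6.009373. The level of ADC2 was below the brightest reporter control and close to that of the dimmer ADC1 probe set, and the SD over the 6 arrays was 2.58e-06 for ADC2, against 0.114 for that ADC1 probe set.

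The difference of the dimmer ADC1 probe set stayed between 0.152 and 0.212 when 1 array was left out at a time, lowest without additional NH4Cl replicate 1. For the brighter probe set the range was 0.000506 to 0.000742. Both stayed positive after quantile normalization of the arrays, at 0.189 for the dimmer and 0.00157 for the brighter one, and after median centring, at 0.189 for the dimmer and 0.000753 for the brighter one. Quantile normalization thus enlarged the difference of the brighter probe set from 0.00063 to 0.00157 and left that of the dimmer one nearly as it was.

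The neighbouring steps of the pathway were listed by enzyme and transporter symbols. Of 69 symbols, 11 genes matched and were measured, each read with its brightest probe set. None of them was called over all probe sets (limma, two-sided), with 4 higher and 7 lower as deposited, beside 50.4% of all rice probe sets above 0 and 49.6% below. At an unadjusted p under 0.05, 1 was higher and 1 was lower, beside 5.09% and 5.96% of all rice probe sets. The test with unequal variances had 0 higher and 1 lower, beside 2124 and 2469 of all 57194 rice probe sets. Limma with a variance trend and robust variances had 1 higher and 0 lower, beside 2933 and 3386 of 57194. The median difference of the 11 genes as deposited was -6.95e-06 log2 units, against 5.67e-09 over all rice probe sets. All 11 were higher after median centring, which adds 0.000123 to the median probe set, and 4 were higher, 5 lower and 2 without a difference after quantile normalization. Single arrays moved the deposited counts: 6 were higher and 5 lower without additional NH4Cl replicate 1, with a median of 1.43e-06, and 2 were higher and 9 lower without additional NH4Cl replicate 3, with a median of -2.94e-05.

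SAMDC, S-adenosylmethionine decarboxylase, provides the aminopropyl groups for spermidine and spermine and was the single synthesis gene matched beside the ADC genes. Its log2 values were 9.889550, 9.889555 and 9.889838 with additional NH4Cl, against 9.889628, 9.889658 and 9.889678 in control. Additional NH4Cl replicate 3 was the highest of all arrays and the other two of its group were the lowest. The difference was -6.95e-06 (SE 9.66e-05), and limma gave an adjusted p of 0.998. Its sign turned positive under both other scalings. A dimmer SAMDC probe set, with a level of 5.82, stood at -1.08e-05 (-1.43 SDs within groups) as deposited, with overlapping groups.

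Of the 7 genes that supply arginine and S-adenosylmethionine, ARG1 had the smallest p in the default limma fit. ARG1 is arginase, which splits arginine into ornithine and urea and so competes with arginine decarboxylase for its substrate. It had 8.879166, 8.879171 and 8.879168 with additional NH4Cl, against 8.879185, 8.879184 and 8.879174 in control. As deposited the groups did not overlap. The difference was -1.28e-05 (SE 3.88e-06; -2.7 SDs within groups), lower with additional NH4Cl as deposited. Limma gave a p of 0.0214 and an adjusted p of 0.34. That p depended on the variance model. Limma with a variance trend and robust variances gave ARG1 a p of 0.262, and the test with unequal variances gave 0.0482. With 1 array left out the limma p of ARG1 ran from 0.0025 to 0.0686. Quantile normalization gave a difference of -0.000209. Median centring gave 0.00011, and limma then called ARG1 higher with an adjusted p of 0.00759. Under that scaling 50499 of 57194 rice probe sets were called higher, so the call does not set ARG1 apart. In the gene table ARG1 lies close to ADC2, with 5 protein-coding genes between them.

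CARB, the large subunit of carbamoyl phosphate synthetase, which feeds arginine and pyrimidine synthesis, was the other gene with an unadjusted p under 0.05. Its values were 7.279284, 7.279497 and 7.280003 with additional NH4Cl, against 7.278989, 7.278988 and 7.278854 in control. The groups did not overlap, with additional NH4Cl higher. The difference was 0.000651 (SE 0.000218; 2.44 SDs within groups), with a limma p of 0.0299 and an adjusted p of 0.382, and it was positive under both other scalings. After median centring limma called it higher, with a difference of 0.000773 and an adjusted p of 0.00779, beside 50499 of 57194 rice probe sets called higher.

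The S-adenosylmethionine synthetases SAMS and SAM2 were, with SAMDC, the brightest genes of the list. SAMS, with a level of 10.8, had a difference of 1.89e-05 (0.379 SDs within groups), and SAM2, with a level of 9.43, one of 0.000307 (0.773 SDs). SAM2 stood at 2.32e-05 without additional NH4Cl replicate 3 and at 0.000536 without additional NH4Cl replicate 1. After quantile normalization the difference of both SAMS and SAM2 was 0. This follows by construction, since SAMS held place 296 and SAM2 place 1052 from the brightest on every array. Limma gave adjusted p-values of 0.949 for SAMS and 0.835 for SAM2. A dimmer probe set of SAM2 stood at -0.00064 (-1.89 SDs), opposite in sign to the brighter one. Its groups did not overlap, while those of the brighter SAM2 probe set did. The SAMS probe set carries a suffix for several transcripts of a gene, as does that of BADH2, and that of CARA carries one for several genes, so these 3 values are uncertain. The remaining 6 genes, of arginine supply (CARA, OAT), S-adenosylmethionine synthesis (METK3), aminoaldehyde oxidation (BADH1, BADH2) and polyamine uptake (PUT1), lay between -1.37 and 0.204 SDs within groups, with adjusted p of 0.635 or more in limma.

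**Figure D3:**
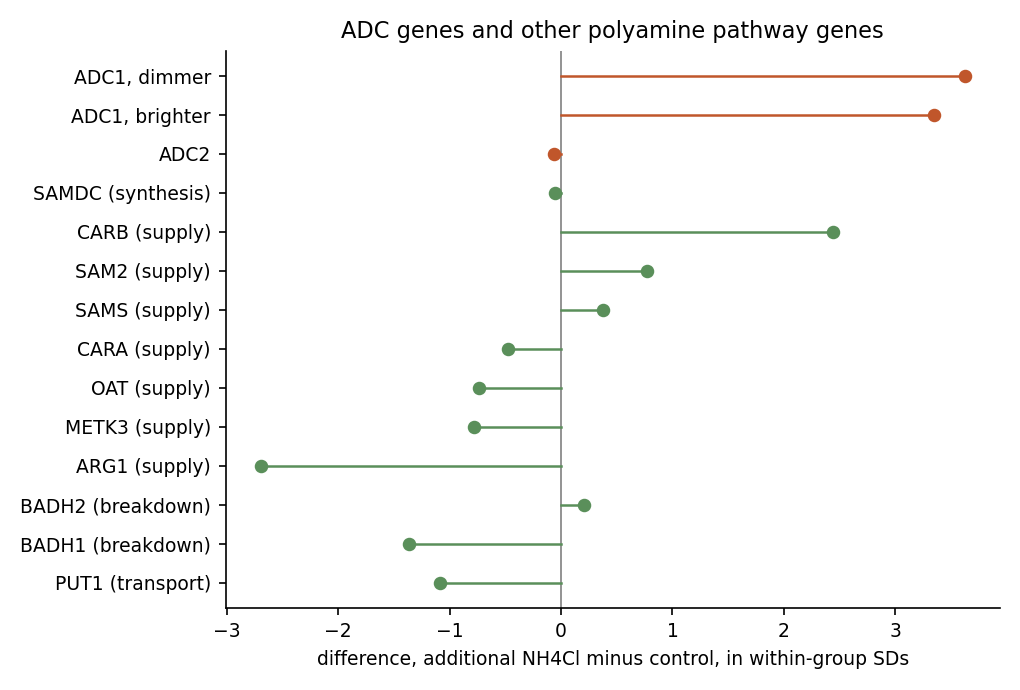
Difference between the groups, additional NH4Cl minus control, in SDs within groups, for the ADC probe sets in orange and the 11 other pathway genes in green, with the role of each in brackets. The 2 ADC1 probe sets stand at 3.62 and 3.35, CARB at 2.44 and ARG1 at -2.7, and ADC2 and SAMDC lie next to 0.

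The genes most like ADC1 over the 6 arrays were sought among named genes whose SD over the arrays was at least 0.01. Of 178 probe sets with such an SD, 20 belonged to 1 named gene other than ADC1. Likeness was measured as Pearson r with the brighter ADC1 probe set, whose own SD of 0.000384 lay below that minimum. The arrays are the same 6 for all genes, and a gene that separates the groups will be like ADC1 for that reason alone. The highest was eIF-4G, a scaffold of translation initiation, with r of 0.736 and levels of 7.22 with additional NH4Cl and 7.14 in control. Its value is uncertain, since the suffix of its probe set marks probes shared by several transcripts. CAT-A, a catalase, which removes hydrogen peroxide, followed with r of 0.63, at 6.25 with additional NH4Cl and 6.23 in control. PBZ1, a pathogenesis-related protein, had r of 0.543, OsPIN4 0.53 and RAB16B, a dehydrin, 0.395.

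The most opposite was NAS1, nicotianamine synthase, which also consumes S-adenosylmethionine, with r of -0.899 and levels of 7.19 with additional NH4Cl and 7.37 in control. OsSUS3, a sucrose synthase, had r of -0.886, and PDC, pyruvate decarboxylase, -0.877. NAS1, PDC, eIF-4G and CAT-A had groups without overlap, and PBZ1, OsPIN4, RAB16B and OsSUS3 had groups that overlapped.

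**Figure D4:**
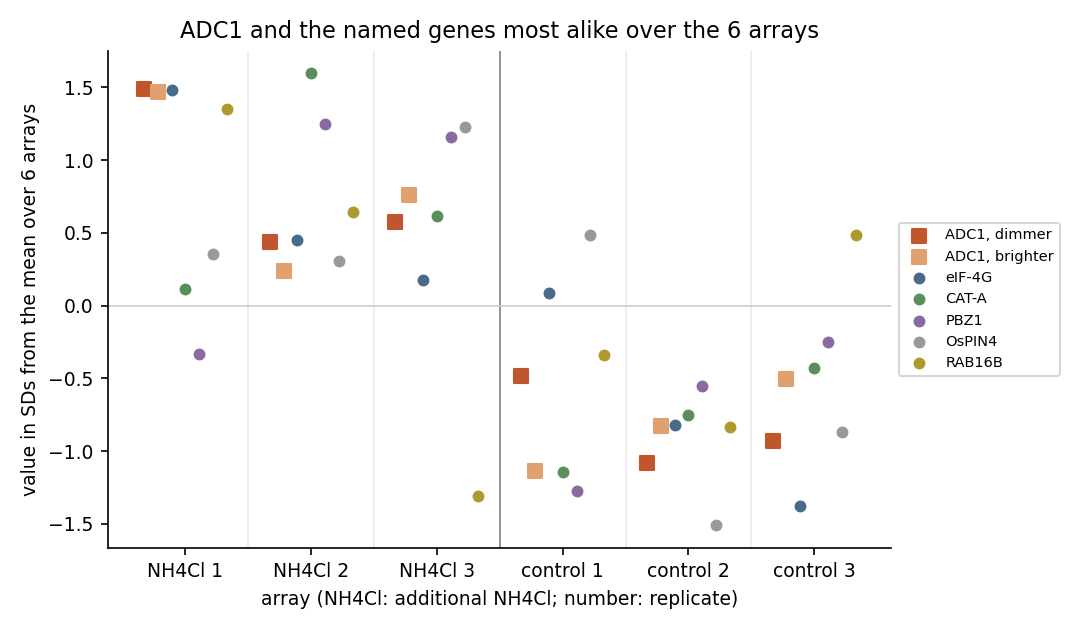
Values of both ADC1 probe sets (squares) and of the 5 named genes most alike (circles) on each array, in SDs from the probe set's mean over the 6 arrays, with additional NH4Cl left of the line and control right of it. Both ADC1 probe sets are above their mean on every additional NH4Cl array and below it on every control array, and eIF-4G follows them except on control replicate 1.

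Markers of other seed tissues were set beside the ADC1 result. All 4 green tissue markers, each read with its brightest probe set, were higher with additional NH4Cl as deposited and after median centring. Beside this, 50.4% of all rice probe sets were above 0 as deposited, and limma called 50499 of 57194 higher after median centring. A dim RBCS probe set stood at -2.07e-08 as deposited, and the other RBCS probe sets stood above 0. After quantile normalization 1 of the 4 markers was higher, 1 lower and 2 without a difference. The sum of their levels on a linear scale was 4413.9 to 4416.2 with additional NH4Cl and 4412.2 to 4414.6 in control. Of 4 embryo and aleurone markers 2 were higher and 2 lower as deposited, 2 higher and 2 without a difference after quantile normalization, and 4 higher after median centring, with sums as deposited of 15064 to 15080 with additional NH4Cl and 15066 to 15075 in control. Of 11 endosperm markers 5 were higher and 6 lower as deposited, 0 higher, 1 lower and 10 without a difference after quantile normalization, and 10 higher and 1 lower after median centring. Their sums as deposited were 65171 to 65176 with additional NH4Cl and 65188 to 65195 in control. Nearly all of that gap came from SSI, a soluble starch synthase, at 9.86 with additional NH4Cl and 9.89 in control. Without SSI, left out after its values were seen, the sums were 64240.5 to 64240.6 with additional NH4Cl and 64240.7 in control. The markers without a difference after quantile normalization held the same place on every array, which gives 0 by construction. In SDs within groups as deposited, SSI stood at -6.13, AGPS2 at -4.09 and SWEET11 at -3.16. GLUB-5 stood at 4.28, GLUA-1 at 3.03, prolamin at 2.37 and the green tissue marker LIR1 at 7.97. On their brightest probe sets these markers had groups without overlap, beside 8.42% of all rice probe sets higher and 8.99% lower without overlap. The groups of the other markers overlapped. The part of these markers in the ADC1 result was not tested.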

How the data were processed

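Expression was measured on 6 Affymetrix arrays with biotin-labelled cRNA, per the labels' protocols. The authors deposited 1 value per probe set, read here as log2 from its range; no label or header names the log base, summarization, normalization or software. The 187 control probe sets were left out, and 57194 rice probe sets were fitted as deposited in R 4.3.3 by limma 3.58.1 (its default moderated test from eBayes, without a block or a filter, two-sided, Benjamini-Hochberg over the whole table); the fit was tested on simulated data. Gene names came from the platform annotation, updated through the gene table of assembly ASM3414082v1; 22436 had 1 gene, 95 several, and 34663 were unnamed here. No positions are given, since the build behind the files is not named. DAO matched a listed symbol but names an auxin dioxygenase in rice and was not counted. No 2 arrays shared more than 41 values.

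Members, lists and tests were chosen with earlier results of these data known. Named were all measured members, listed pathway genes at an unadjusted p under 0.05 (at most 8), the 3 brightest, and the 5 most and 3 least like ADC1. The remaining pathway genes were named after their values were seen. Same-numbered replicates had correlations of deviations of -0.0616, 0.0449 and -0.0775, so the numbers were not taken to pair the arrays. Alternatives were 2 scalings, the replicate block, other variance models, 2 filters, gene means and each array left out.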

Additional observations from a re-analysis of the deposited data

How the results depend on the processing

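The dimmer ADC1 probe set kept its sign and moved by less than 1 SD within groups in every alternative run for it. The brighter one, at 0.00063, stood at 0.00157 after quantile normalization, and the other ADC1 probe set in its place gave 0.189. ADC2 stood at -0.000164 after quantile normalization and 0.000122 after median centring, which raises nearly all probe sets by construction. As deposited, limma called 0 of all rice probe sets higher and 4 lower. Quantile normalization gave 2082 and 1997, median centring 50499 and 855, and removal of probe sets below the median level, which tests fewer, 12 and 20. Removal of cross-hybridizing probe sets gave 1 higher, and the trend and robust fit 2 lower; unequal variances gave 0 lower. With 1 array left out 0 to 1 were called in each direction. The replicate block called 0 higher and 2 lower, and it changed no call of a pathway gene. The numbers were not taken to pair the arrays, though a pairing is not excluded. Of the 11 pathway genes 1 was called higher after quantile normalization (METK3, adjusted p of 0.0459), beside 2082 of 57194 rice probe sets. After median centring 6 were called higher (METK3, CARB, CARA, OAT, ARG1 and SAMS), beside 50499 of 57194. As deposited 0 of the pathway genes were called. ARG1 turned to 0.00011 after median centring, and SAMDC to 0.000502 after quantile normalization and 0.000116 after median centring. With 1 array left out SAMS ran from -4.84e-06 to 5.36e-05 and SAMDC from -0.000102 to 4.21e-05. Except where the alternative's construction is named, the cause was not tested. Signals near the reporter controls limit the dimmer ADC1 probe set and ADC2, and also METK3 with a level of 5.72.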

Other observations

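The measured protein-coding genes next to ADC1 in the gene table, LOC4340007 and LOC4340010, had differences of 2.38e-05 and 6.4e-06 for the 2 probe sets of the first and of -5.43e-08 and -3.56e-06 for those of the second, all with overlapping groups. Next to ADC2, LOC4334916 stood at -1.94e-05 and LOC4334918 at 4.43e-07, also with overlap.

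With the dimmer ADC1 probe set in place of the brighter one, a choice made after its values were seen, eIF-4G was again the named gene most alike, with a Pearson r of 0.925 over the 6 arrays, though the suffix of its probe set marks shared probes and leaves its value uncertain. OsPIN4 followed at 0.716 and CAT-A at 0.597. The most opposite were FH16 at -0.896, AC2 at -0.872 and NAS1 at -0.862.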
